A study of Homo sapiens with 18 samples.

Results

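The comparison set SKOV-3 cells that carried the luteinizing hormone receptor (LHR+) and were kept with luteinizing hormone (LH) for 4 h against the same LHR+ cells without LH. It used 6 of the 18 Affymetrix Human Genome U133 Plus 2.0 arrays of the series, 3 from LHR+ cells with LH at 50 ng/ml for 4 h (LH4) and 3 from LHR+ cells without LH (LHR+), and all 54675 probe sets of the array. SKOV-3 is an established line from a human ovarian carcinoma, and the LHR+ cells were made from it by stable transfection with the receptor, so both groups carry the same transgene in the same background. The other arrays hold LHR+ cells after 1, 8 and 20 h with LH (LH1, LH8 and LH20) and cells without the receptor (LHR-), 3 arrays each. The cells without LH are a single group with no time of their own, so effects of 4 h in culture or of the handling at addition of the hormone cannot be told apart from effects of LH. The replicates are described as independent, but the labels do not say whether they came from separate cultures, so a p-value covers only the spread between these samples, which may be technical.

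LH acts through a G protein-coupled receptor that raises cAMP by way of Gs and, at higher receptor occupancy, also activates phospholipase C. cAMP releases the catalytic subunits of protein kinase A, which phosphorylate CREB and related factors on cAMP response elements of promoters. In the ovary the hormone is known for a short burst of transcription factor genes followed by genes of ovulation, such as those for prostaglandin synthesis and for the hyaluronan matrix around the oocyte, and for withdrawal of granulosa cells from the cell cycle.

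The 6 arrays were alike in scale, with median intensities of 51.2 to 54.5 in LH4 and 47.9 to 53.3 in LHR+. Intensity is the deposited value of a probe set on a linear scale. Pearson's r of the log2 values over all probe sets was 0.963 to 0.964 within LH4, 0.962 to 0.964 within LHR+ and 0.958 to 0.962 between them, as a description across probe sets. Between 31.5% and 34.3% of the values of an array lay under 16, where no detection call was at hand to separate signal from background. The only probe set of LHCGR, the transfected receptor gene, had values of 4.11, 1.24 and 0.552 in LH4 and 1.57, 0.344 and 1.07 in LHR+, and it stayed at or below 4.11 on all 18 arrays, LHR- included. Since LHR+ and LHR- arrays did not differ in it, the labels cannot be checked with this probe set. Markers of an epithelial carcinoma were bright, with means of 7966 for KRT7, a simple epithelial keratin, in LH4 and 7252 in LHR+, and of 3661 and 2833 for ERBB2, the receptor tyrosine kinase that is amplified in this line. PTPRC, PECAM1 and FSHR, which mark leukocytes, endothelium and granulosa cells, had means of at most 24.6 in both groups. MUC16, EPCAM and CDH1, which many ovarian carcinomas express, were dim here, with means of 1.16, 57.5 and 30.8 in LH4 and 0.903, 70.3 and 23.8 in LHR+.

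Each of 19775 genes was represented by its brightest probe set among those that list 1 gene. Values were compared as log2(value + 1) with limma over all 18 arrays, with Benjamini-Hochberg adjustment over all probe sets. A called gene had p under 0.05, an adjusted p under 0.1, at least a 2-fold change and 3 LH4 arrays that all lay on the same side of all 3 LHR+ arrays. The smallest two-sided p of an exact permutation test between these groups is 0.1, and every p given here comes from limma's model of the variance. By these criteria 233 genes were higher in LH4, which is 1.18% of the genes, and 160 were lower, which is 0.809%. Over probe sets the numbers were 692 higher (1.27%) and 340 lower (0.622%). The median log2 fold change of all genes was −0.01. The largest changes were rises, with 19 genes changed at least 10-fold against 0 of the genes that fell. Of these 19 genes, 10 had an LHR+ mean under 16, where signal and background could not be separated. Of the called genes, 118 of the higher and 81 of the lower were brighter than the median gene, and 65 of the higher had an LHR+ mean under 16 while 39 of the lower had an LH4 mean under 16. For such dim genes the fold change on the log2(value + 1) scale is smaller than the ratio of the geometric means of the intensities. It can still be larger than the ratio of the group means, as for PDE4B (16.9-fold, with means of 82.8 in LH4 and 6.23 in LHR+).

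**Figure D1:**
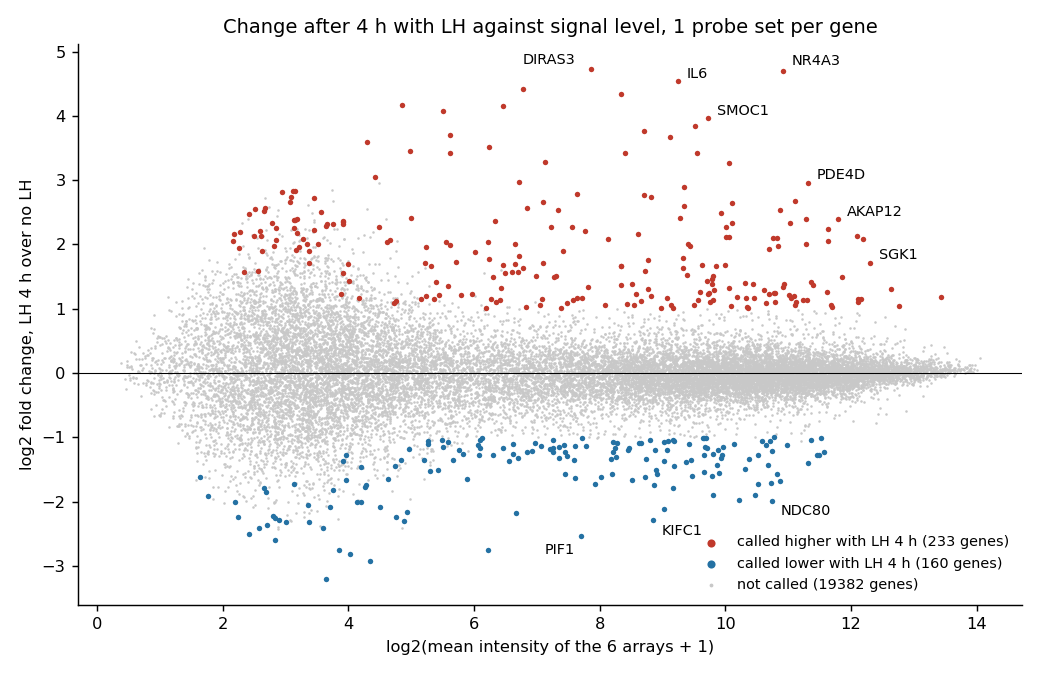
Log2 fold change of LH4 over LHR+ (y axis) against the log2 of the mean intensity of the 6 arrays plus 1 (x axis) for 19775 genes, 1 probe set each. The 233 genes called higher (red) reach log2 fold changes above 4 over a wide range of intensities, while the 160 genes called lower (blue) stay above −3.3, and grey points are genes that were not called.

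Transcription factors of the immediate early class held several of the largest rises at 4 h. Of 20 such genes measured, 6 were called higher (30%, against 1.18% of all genes) and 2 lower (10%, against 0.809%), and the list's median log2 fold change was 0.40. NR4A3, an orphan nuclear receptor of the NR4A family that LH induces in ovarian follicles, had 3554, 3885 and 3725 in LH4 and 136, 112 and 189 in LHR+. The 3 LH4 values were close to each other and all far above the LHR+ values. The fold change was 26.0 (log2 fold change 4.70, SE 0.23, limma adjusted p = 6.88e-08), with a log2 fold change of 3.50 for the mean of all its probe sets. NR4A2, a further member of the family, had 768, 822 and 749 in LH4 and 43.5, 72.1 and 57.9 in LHR+, a 13.5-fold difference (adjusted p = 2.12e-07) with no overlap. NR4A1 was the dimmest of the family, with 136, 115 and 95.8 in LH4 and 33.9, 29.7 and 34.9 in LHR+ (3.43-fold, adjusted p = 0.00207). FOSB, a partner of Jun proteins in AP-1, had 197, 182 and 112 in LH4 against 11.2, 14.9 and 2.74 in LHR+. Its LHR+ values were near the background, and its fold change of 17.8 carries a wide error (SE 0.47 on the log2 scale). Its log2 fold change of 4.16 was 2.81 with a pseudocount of 16 and 3.52 without LHR+ replicate 3. MAFF, a small Maf protein that pairs with other leucine zipper factors, and ATF3, a stress-induced factor of the CREB family, rose with log2 fold changes of 1.39 and 1.03 (adjusted p = 2.68e-05 and 2.65e-05). The call of NR4A1 was lost when a gene was taken as the mean of all its probe sets. Its other probe sets were dimmer and were not called.

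EGR1 and FOSL1 went the other way. EGR1, a zinc finger factor of the first minutes of a response, had 409, 348 and 383 in LH4 and 1445, 1368 and 1417 in LHR+, with no overlap (log2 fold change −1.89, SE 0.14, adjusted p = 1.79e-06). The AP-1 member FOSL1 had 715, 682 and 636 in LH4 and 2282, 2365 and 2086 in LHR+ (log2 fold change −1.73, adjusted p = 2.70e-07). FOS itself stayed near the background, with 4.47, 3.54 and 3.16 in LH4 and 3.24, 11.8 and 2.27 in LHR+, and JUN had 5456, 6618 and 6876 against 5319, 5518 and 4078. Neither was called (adjusted p = 0.910 and 0.179). NAB2, a corepressor of EGR proteins, was called higher with a log2 fold change of 1.02 (adjusted p = 0.00140).

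Promoter sequences of 179 of the 233 genes called higher were at hand from RefSeq (GRCh38.p14, 250 bases before to 50 bases after 1 start per gene). The full cAMP response element TGACGTCA, searched on both strands, was present in 7 of them (3.91%), against 2.67% of the promoters of all genes. The shorter motif TGACG, which the full element contains, was present in 29.6% of them and in 29.7% of all. Among the 94 promoters of genes called higher and brighter than the median gene, the shares were 5.32% and 38.3%. The shares among all genes of that brightness were not computed, so these values have no matched background. As a description of windows and not of bound factors, the 200 bases before the start are shown for 4 transcription factor and phosphodiesterase genes with such a motif, on the strand of the gene. Capitals mark TGACG or the full element in either orientation.
NR4A3, chr9:99821685-99821884, plus strand: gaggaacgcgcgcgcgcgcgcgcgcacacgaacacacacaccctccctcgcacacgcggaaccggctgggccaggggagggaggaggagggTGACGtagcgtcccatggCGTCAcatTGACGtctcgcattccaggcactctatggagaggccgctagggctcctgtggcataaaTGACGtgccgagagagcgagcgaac
MAFF, chr22:38201794-38201993, plus strand: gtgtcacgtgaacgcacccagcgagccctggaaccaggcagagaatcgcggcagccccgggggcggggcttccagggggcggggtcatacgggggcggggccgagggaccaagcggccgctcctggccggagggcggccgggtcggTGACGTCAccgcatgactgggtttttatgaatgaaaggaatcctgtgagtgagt
PDE7B, chr6:135851501-135851700, plus strand: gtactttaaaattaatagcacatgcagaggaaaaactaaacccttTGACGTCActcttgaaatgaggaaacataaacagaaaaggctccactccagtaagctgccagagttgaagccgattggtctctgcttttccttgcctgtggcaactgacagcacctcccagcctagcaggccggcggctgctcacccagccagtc
FOSB, chr19:45467796-45467995, plus strand: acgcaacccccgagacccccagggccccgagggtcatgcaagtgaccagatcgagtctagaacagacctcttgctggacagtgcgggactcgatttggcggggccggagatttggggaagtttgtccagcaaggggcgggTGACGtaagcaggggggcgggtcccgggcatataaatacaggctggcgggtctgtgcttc
MAFF and PDE7B carry the full element at 1 place each, NR4A3 carries the shorter motif at 4 places and FOSB at 1. IL6, whose promoter is not printed here, holds the shorter motif at 2 places.

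Of 19 cyclic nucleotide phosphodiesterases, which end the cAMP signal, 4 were called higher (21.1%, against 1.18% of all genes) and 0 lower, with 3 below 0 at an unadjusted limma p under 0.05 and a list median of 0.10. PDE4D, a cAMP-specific phosphodiesterase and a known target of protein kinase A, had 4503, 4451 and 4580 in LH4 and 655, 564 and 523 in LHR+, a 7.79-fold difference between tight groups (SE 0.13 on the log2 scale, adjusted p = 1.49e-08). PDE7B, another cAMP-specific enzyme, had 1908, 2107 and 1792 in LH4 and 229, 177 and 194 in LHR+ (9.68-fold, adjusted p = 1.38e-07), a log2 fold change of 3.27 that was 2.64 with the mean of its probe sets. Both genes were separated by a wide gap. PDE4B was dim, with 103, 69.8 and 75.5 in LH4 and 2.08, 15.3 and 1.31 in LHR+, of which LHR+ replicate 2 was the high one. Its fold change of 16.9 on the log2(value + 1) scale (adjusted p = 0.00135) lost its call when only the arrays of these groups were fitted, and its log2 fold change of 4.08 ranged down to 1.604 (mean of its probe sets) and up to 4.95 (without LHR+ replicate 2). PDE10A, which hydrolyses both cAMP and cGMP, rose 2.48-fold (adjusted p = 2.17e-04), a call that was lost with the mean of all its probe sets. PDE7A went in the other direction without reaching the fold threshold (1758 in LH4 and 2747 in LHR+, log2 fold change −0.64, adjusted p = 5.17e-04).

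Among 34 genes of cAMP, protein kinase A and CREB signaling, 2 were called higher (5.88%, against 1.18% of all genes). By limma 0 were called lower (against 0.809%), with 3 below 0 at an unadjusted p under 0.05. AKAP12, a scaffold that holds protein kinase A at the membrane, had 5876, 6138 and 5814 in LH4 and 1166, 1145 and 1085 in LHR+ (5.25-fold, adjusted p = 1.29e-07), and its values in each group differed little. CREM, a CREB relative whose short ICER products repress cAMP response elements, had 1274, 1279 and 1300 in LH4 and 473, 484 and 512 in LHR+ (2.62-fold, adjusted p = 2.05e-05). Of its 6 probe sets 4 were called higher, and the mean over all 6 missed the fold threshold. SIK1, a salt-inducible kinase that holds CREB coactivators out of the nucleus, had 7755 in LH4 and 4223 in LHR+ and reached adjusted p = 3.42e-05 at a fold change under 2. The subunit genes GNAS and PRKAR1A had log2 fold changes of 0.003 and 0.30 and were not called. RGS2, which speeds up GTP hydrolysis by Gq, was the only called gene among 21 regulators of G protein signaling and receptor desensitization, with 1486, 1486 and 1244 in LH4 and 399, 443 and 487 in LHR+ (3.17-fold, adjusted p = 3.69e-06). DUSP5, a nuclear phosphatase of ERK, was the only called gene among 17 feedback genes of MAPK signaling (2.24-fold, adjusted p = 1.11e-04). RGS2 and DUSP5 make up 4.76% and 5.88% of their lists, against 1.18% of all genes, and each share rests on 1 gene.

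**Figure D2:**
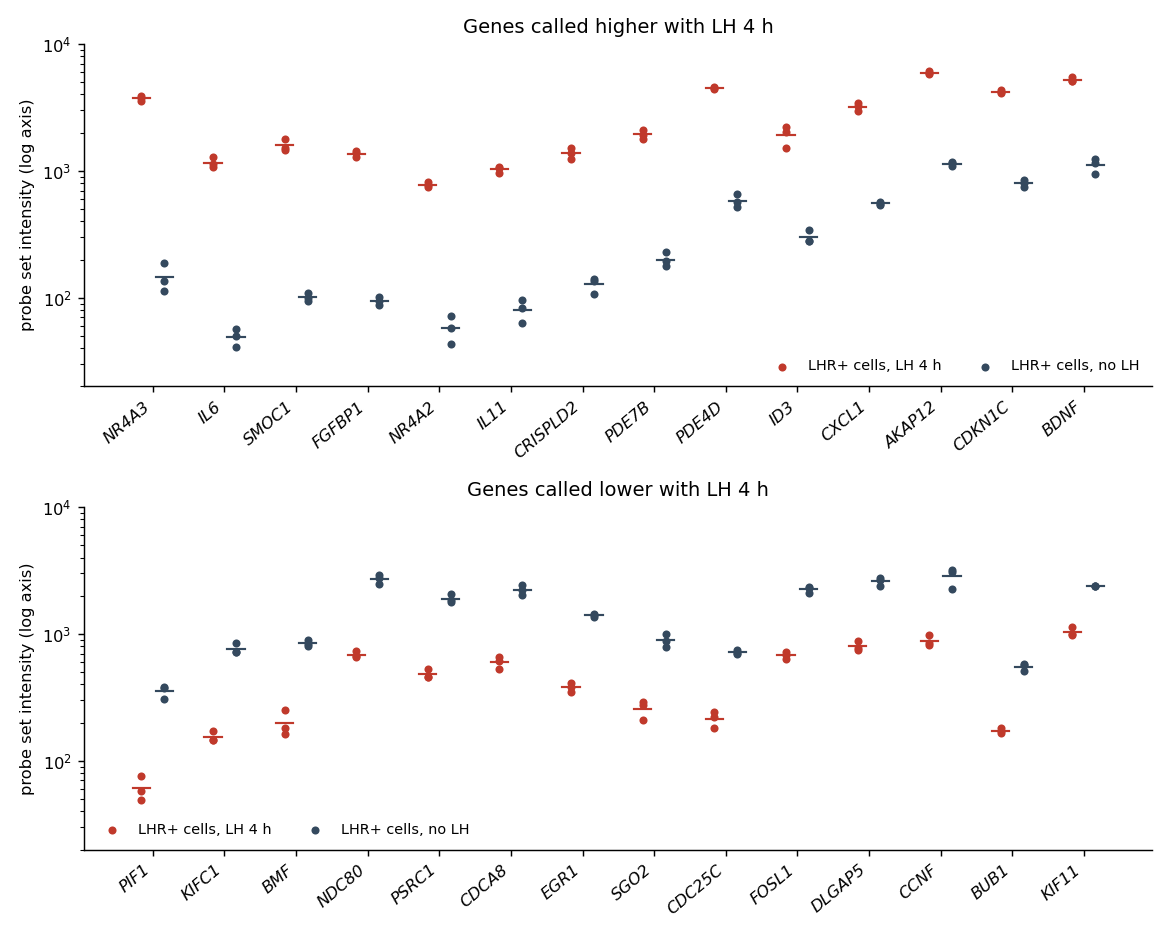
Intensity on a log axis (y axis) of 14 genes called higher (upper panel) and 14 called lower (lower panel), with 1 point per array, LH4 in red left of LHR+ in dark blue, and a line at the mean of 3 arrays. In each of the 28 genes the 3 LH4 points lie clear of the 3 LHR+ points, for example at 1075 to 1280 against 41.0 to 57.0 for IL6.

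Cytokine genes formed the next group of strong rises. Of 38 cytokines and chemokines 7 were called higher (18.4%, against 1.18% of all genes) and 1 lower (2.63%, against 0.809%). IL6, the interleukin that signals through gp130, had 1133, 1075 and 1280 in LH4 and 41.0, 50.3 and 57.0 in LHR+, which is a 23.2-fold difference (log2 fold change 4.54, SE 0.19, adjusted p = 1.28e-08). IL11, another ligand of the gp130 family, had 1046, 1077 and 956 in LH4 and 95.7, 62.8 and 83.3 in LHR+ (12.8-fold, adjusted p = 1.44e-07). Both were low without LH and high on each of the LH4 arrays. The other called members of the list that rose were chemokines, among them the neutrophil attractants CXCL1, CXCL2, CXCL3 and CXCL8. CXCL1 had 3229, 3434 and 2946 in LH4 and 572, 539.6 and 548 in LHR+ (5.77-fold, adjusted p = 1.02e-08), and CXCL2, CXCL3 and CXCL8 had log2 fold changes of 2.50, 2.16 and 2.42 (adjusted p of at most 6.59e-06), the last 1.70 with the mean of its probe sets. CCL20, the ligand of CCR6, had 54.3, 49.3 and 54.9 in LH4 and 0.716, 8.11 and 0.732 in LHR+, a low level above the background in LH4 only (adjusted p = 0.00223), and its log2 fold change of 4.16 was 1.86 with a pseudocount of 16 and 4.96 without LHR+ replicate 2. TSLP, an epithelial cytokine, was called lower at very low values (7.42, 12.3 and 6.996 in LH4 and 27.0, 20.5 and 30.0 in LHR+, adjusted p = 0.0945), and its call was lost on leaving out any 1 of the 6 arrays. IL15 had means of 1790 in LH4 and 936 in LHR+ and just missed the fold threshold in its brightest probe set (log2 fold change 0.94, adjusted p = 5.57e-04), although its other probe set was called higher (2.30-fold, adjusted p = 6.11e-05), while LIF had 764 in LH4 and 776 in LHR+.

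On the receiving side, 4 of 39 cytokine receptors and SOCS genes were called higher (10.3%, against 1.18% of all genes) and 1 lower (2.56%, against 0.809%). IL1R1, the signaling receptor of interleukin 1, had 499, 469 and 390.3 in LH4 and 122, 117 and 82.5 in LHR+ (4.23-fold, adjusted p = 6.83e-06). SOCS3, the feedback inhibitor of gp130 signaling, had 2467, 2051 and 1534 in LH4 and 712, 838 and 732 in LHR+ (2.61-fold, adjusted p = 6.81e-04), and ACKR3, a scavenger receptor of CXCL12, had 5741, 6006 and 6655 against 2777, 2489 and 2993 (2.23-fold, adjusted p = 2.41e-05). IL6R, the specific receptor of interleukin 6, was lower, with 96.9, 71.5 and 104 in LH4 and 194, 201 and 219.5 in LHR+ (log2 fold change −1.18, adjusted p = 0.00202). The shared receptor subunit of the family, IL6ST, had means of 4968 in LH4 and 4357 in LHR+ and was not called. The calls of SOCS3, ACKR3 and IL6R did not hold with the mean of all their probe sets, and the call of JAK2 (log2 fold change 1.03, adjusted p = 0.0848) was lost under 10 of 15 alternatives. NFKBIZ, an atypical inhibitor of NF-kB, was the only called gene of 16 NF-kB feedback genes (2.35-fold, adjusted p = 7.95e-06). That 1 gene is 6.25% of its list, against 1.18% of all genes.

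Single genes of growth factors were called. HBEGF, a ligand of the EGF receptor, had 1552, 1865 and 1588 in LH4 and 409.8, 437 and 309 in LHR+ (4.35-fold, adjusted p = 1.40e-05), and it was the only gene called of 15 EGF-like ligands and their receptors. That 1 gene is 6.67% of its list, against 1.18% of all genes called higher. Of 29 growth and angiogenic factors 3 were higher (10.3%) and 1 lower (3.45%, against 0.809% of all genes), with a list median of 0.003. BDNF, a neurotrophin that the ovary also makes, had 5152, 5445 and 5120 in LH4 and 1249, 1147 and 939.7 in LHR+ (4.74-fold, adjusted p = 3.86e-07). EDN1, the vasoconstrictor peptide endothelin 1, had 1514, 1861 and 1800 in LH4 and 404, 411 and 375 in LHR+ (4.33-fold, adjusted p = 5.23e-07), and in neither gene did the groups overlap. The glycoprotein hormone STC1 rose 2.16-fold (adjusted p = 0.00349), a change that fell just under the fold threshold without LHR+ replicate 3. PDGFB was lower, with 94.4, 58.4 and 66.6 in LH4 and 167, 169 and 168 in LHR+ (log2 fold change −1.22, adjusted p = 0.00211), though not with the mean of all its probe sets. VEGFA and FGF2, which were bright, had log2 fold changes of −0.11 and 0.001 in their brightest probe sets and were not called. A dimmer probe set of FGF2 had means of 3181 in LH4 and 4463 in LHR+ (log2 fold change −0.49, adjusted p = 0.00273), short of the fold threshold.

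The TGF-beta, activin and BMP pathway had 4 of 49 genes called higher (8.16%, against 1.18% of all genes) and 1 lower (2.04%, against 0.809%). ID3 and ID4, inhibitors of basic helix-loop-helix factors and classical targets of BMP signals, were among them. ID3 had 2209, 2014 and 1512 in LH4 and 344, 281 and 279 in LHR+ (6.28-fold, adjusted p = 2.84e-06), and ID4 had 788, 838 and 546 in LH4 and 123, 88.2 and 104 in LHR+ (log2 fold change 2.76, adjusted p = 5.54e-06, or 1.85 with the mean of its probe sets). In both genes LH4 replicate 3 was the lowest of its group and still far above every LHR+ array. The ligand BMP2 had 1369, 1279 and 1249 in LH4 and 536, 435 and 449 in LHR+ (2.75-fold, adjusted p = 6.05e-06). FST, the binding protein that neutralises activin, had 52.6, 105 and 111 in LH4 and 8.47, 8.34 and 4.82 in LHR+, with LH4 replicate 1 lower than the other 2. Its LHR+ values were in the range of the background, and its log2 fold change of 3.42 (adjusted p = 1.35e-04) was 2.13 with a pseudocount of 16 and 2.16 with the mean of its probe sets. INHBE, an inhibin beta subunit, was lower, with 198, 213 and 209.5 in LH4 and 589, 702 and 615 in LHR+ (log2 fold change −1.61, adjusted p = 1.38e-05).

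Insulin and IGF signaling had 4 of 28 genes called higher (14.3%, against 1.18% of all genes). By limma 0 were called lower (against 0.809%), with 2 below 0 at an unadjusted p under 0.05. SGK1, a kinase of the AGC family under control of PI3K and a known cAMP-responsive gene of granulosa cells, had 7400, 7594 and 8200 in LH4 and 2392, 2417 and 2263 in LHR+ (3.28-fold, adjusted p = 3.72e-07). IGF1R, the receptor of IGF-I, had 6653, 6037 and 6175 in LH4 and 2877, 2973 and 2682 in LHR+ (2.21-fold, adjusted p = 7.46e-06), and INSIG1, an anchor that keeps SREBP in the endoplasmic reticulum, rose 4.04-fold (adjusted p = 4.54e-06). IGFBP1, a binding protein of the IGFs, had 179, 124 and 133.4 in LH4 and 47.8, 46.5 and 47.8 in LHR+ (adjusted p = 0.0108), a call that was lost with the mean of its probe sets. IRS2 and FOXO3 had log2 fold changes of −0.03 and −0.15 and were not called.

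Of 31 genes known from ovulation and prostaglandin synthesis, 3 were called higher (9.68%, against 1.18% of all genes) and 1 lower (3.23%, against 0.809%). HAS2, the hyaluronan synthase of the expanding cumulus, had 88.2, 96.5 and 81.5 in LH4 and 2.01, 12.4 and 7.19 in LHR+, values near the background without LH (adjusted p = 0.0162). Its log2 fold change of 3.70 was 2.20 with a pseudocount of 16 and 3.10 without LHR+ replicate 1. PTGES, the terminal synthase of prostaglandin E2, had 372, 285 and 277 in LH4 and 66.3, 56.8 and 66.6 in LHR+ (log2 fold change 2.27, adjusted p = 1.40e-05, or 1.30 with the mean of its probe sets), and CEBPD, a C/EBP transcription factor, had 2576, 2759 and 3472 against 692, 769 and 589 (4.28-fold, adjusted p = 5.09e-07). PTGER4, a Gs-coupled receptor of prostaglandin E2, was lower, with 57.1, 44.8 and 35.8 in LH4 and 99.4, 99.1 and 78.8 in LHR+ (log2 fold change −1.01, adjusted p = 0.00763). PTGS2, the inducible cyclooxygenase of the ovulatory response, stayed low, with 14.9, 13.9 and 17.9 in LH4 and 10.9, 9.67 and 15.1 in LHR+ (adjusted p = 0.743). None of 29 genes of steroidogenesis was called by limma in either direction (1 above and 1 below 0 at an unadjusted p under 0.05), their median log2 fold change was 0.03, and STAR had 30.5, 11.2 and 12.04 in LH4 and 13.6, 8.22 and 28.9 in LHR+. The PTGER4 change sits at the fold threshold and was lost under several alternatives, among them a pseudocount of 16.

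Several of the largest rises belong to none of these groups. DIRAS3, a Ras-related gene known as a growth suppressor that is often silent in ovarian carcinoma, had 404, 509.8 and 429.8 in LH4 and 15.9, 15.8 and 16.1 in LHR+ (log2 fold change 4.72, SE 0.49, adjusted p = 5.23e-05). Its LHR+ values lay at the level of the background, and with a pseudocount of 16 the log2 fold change was 3.85. DMBT1, a scavenger receptor protein of epithelia, had 726, 598 and 517 in LH4 and 43.4, 17.9 and 31.5 in LHR+ (20.2-fold, adjusted p = 1.41e-07). FGFBP1, a secreted carrier of FGF2, had 1426, 1393 and 1282 in LH4 and 93.5, 102 and 87.1 in LHR+ (14.4-fold, adjusted p = 1.21e-08). All of these were weak without LH and well above the median gene with it. The matrix protein SMOC1, a calcium-binding antagonist of BMP signals, had 1776, 1526 and 1472 in LH4 and 94.6, 98.9 and 109 in LHR+ (15.6-fold, adjusted p = 1.05e-09). CRISPLD2, a secreted protein, had 1378, 1508 and 1237 against 141, 136 and 108 (log2 fold change 3.42, adjusted p = 1.08e-08, or 1.58 with the mean of its probe sets). DAW1, C11orf96 and the inward rectifier potassium channel KCNJ16 followed with log2 fold changes of 3.42, 2.89 and 2.78 (adjusted p of at most 2.79e-04), of which C11orf96 lost its call (1.199) and KCNJ16 came to 1.79 with the mean of the probe sets.

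Genes of matrix and adhesion changed in small numbers. SMOC1, CCN2 and LUM were called higher of 52 matrix genes (5.77%, against 1.18% of all genes). By limma 0 were called lower (against 0.809%), and 0 were lower at an unadjusted p under 0.05. CCN2, a matricellular growth factor of the CCN family, had 3064, 2798 and 2563 in LH4 and 658, 687 and 607 in LHR+ (4.30-fold, adjusted p = 2.08e-07). LUM, a small proteoglycan that is also a marker of stromal cells, was dim (64.0, 38.1 and 42.3 in LH4 and 24.7, 15.8 and 22.4 in LHR+), and its call was lost under 5 alternatives. The stromal markers DCN and COL1A2 had means of 14.4 and 1131 in LH4 and 16.8 and 1088 in LHR+, and 2 further probe sets of DCN were called higher at LH4 means of 10.2 and 7.97. In the plasminogen system TFPI2, an inhibitor of serine proteases, and PLAUR, the urokinase receptor, were higher (5.04-fold and 2.28-fold, adjusted p = 3.90e-07 and 1.96e-05), and urokinase itself, PLAU, was lower (2078, 1868 and 1945 in LH4 and 3821, 3797 and 4209 in LHR+, log2 fold change −1.005, adjusted p = 1.23e-04). The PLAU change lies at the fold threshold. Its call was lost with a pseudocount of 16 and without LH4 replicate 2, LH4 replicate 3 or LHR+ replicate 3. With the mean of all their probe sets, the calls of PLAU and PLAUR were both lost. ITGB8, an integrin subunit that activates latent TGF-beta, and CDH6, a cadherin, rose 3.21-fold and 2.37-fold (adjusted p = 6.05e-06 and 2.77e-05), and the tight junction gene CLDN4 was lower, with 215, 216 and 199 in LH4 and 518, 511 and 429.9 in LHR+ (adjusted p = 2.97e-04). The call of CLDN4 did not hold with the mean of its probe sets. WNT5A, a ligand of noncanonical Wnt signaling, had 2825, 3017 and 2914 in LH4 and 1453, 1165 and 1297 in LHR+ (2.24-fold, adjusted p = 1.11e-05).

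**Figure D3:**
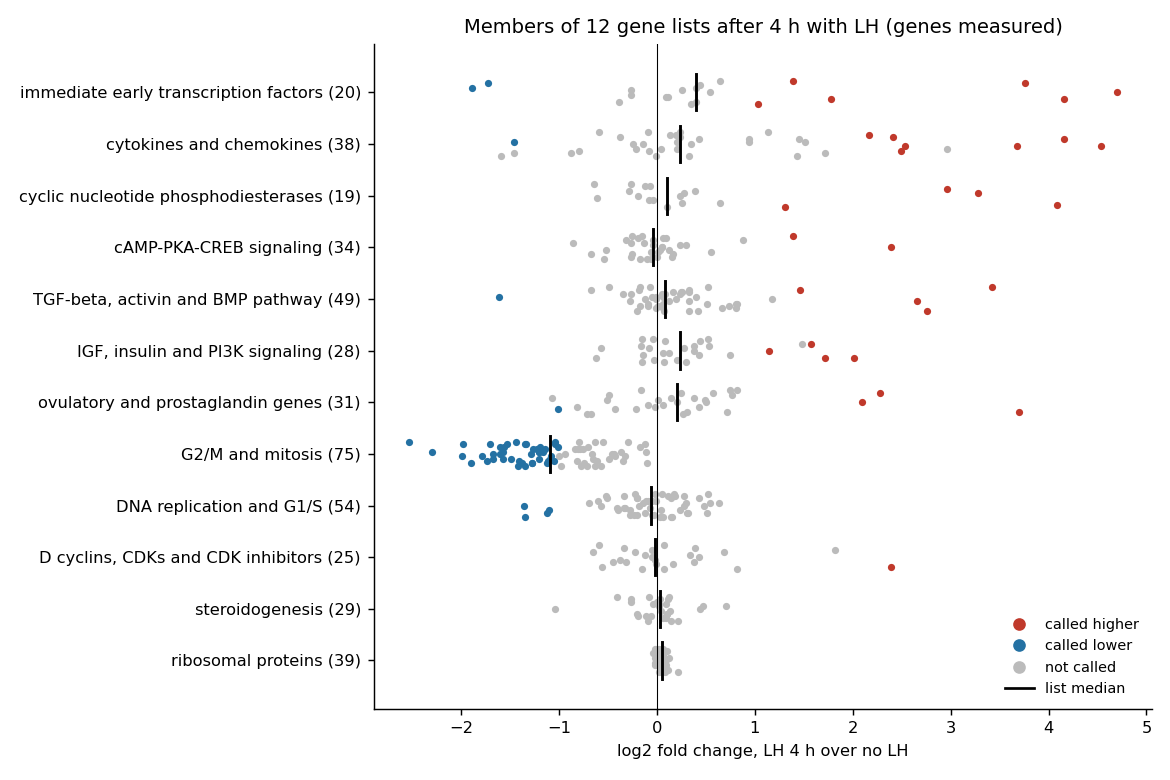
Log2 fold change of LH4 over LHR+ (x axis) of the members of 12 gene lists (y axis, number of genes measured in brackets), with 1 point per gene and a black line at the list median. The 75 genes of G2/M and mitosis all lie below 0, with 43 of them called lower, while the other lists shown have medians between −0.06 and 0.40.

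Genes of entry into and passage through mitosis were the largest group of falls among the lists. All 75 genes of this list had a log2 fold change below 0, with a median of −1.09 against −0.01 over all genes. By the call criteria 43 of the 75 were lower (57.3%, against 0.809% of all genes) and 0 were higher, also at an unadjusted limma p under 0.05. In bulk RNA, fewer cells in mitosis and less of these RNAs per cell cannot be told apart. In 72 of the 75 the 3 LH4 arrays lay below all 3 LHR+ arrays, against 14.38% of all genes. Of the 75, 68 were lower at a limma adjusted p under 0.1, against 837 of all 19775 genes. NDC80, the core subunit of the kinetochore complex that binds microtubules, had 669, 662 and 728 in LH4 and 2477, 2785 and 2940 in LHR+ (log2 fold change −1.99, SE 0.13, adjusted p = 7.44e-07), and its partners NUF2 and SPC25 had log2 fold changes of −1.14 and −1.09. The largest fall of the list was that of PIF1, a DNA helicase, with 49.6, 57.6 and 75.4 in LH4 and 308, 379 and 372 in LHR+ (log2 fold change −2.53, adjusted p = 1.96e-05). The groups were far apart in each of these genes. Among motor proteins, KIFC1, a minus-end kinesin that focuses spindle poles, had 173, 146 and 146 in LH4 and 847, 722 and 725 in LHR+ (log2 fold change −2.29, adjusted p = 8.42e-06), and KIF11, the kinesin that pushes the poles apart, had 991, 981 and 1138 against 2397, 2390 and 2367 (log2 fold change −1.20, adjusted p = 2.66e-06).

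Spindle and checkpoint kinases took part as well. BUB1, a kinase of the spindle checkpoint, had 172, 165 and 182 in LH4 and 567, 509 and 584 in LHR+ (log2 fold change −1.67, adjusted p = 6.84e-06). PLK1, the kinase that drives mitotic entry, had 261, 224 and 241 in LH4 and 715, 755 and 693 in LHR+ (log2 fold change −1.57, adjusted p = 2.86e-06), and TTK, NEK2 and AURKB had log2 fold changes of −1.53, −1.34 and −1.17. The arrays of LH4 were the lower ones in all of these. CDC25C, the phosphatase that activates CDK1, had 242, 182 and 222 in LH4 and 702, 701 and 749 in LHR+ (log2 fold change −1.74, adjusted p = 2.09e-05). CCNF, a cyclin that serves as a substrate adaptor of an SCF ubiquitin ligase, had 825, 979 and 847 in LH4 and 3199, 3078 and 2259 in LHR+, of which LHR+ replicate 3 was the lowest of its group (log2 fold change −1.67, adjusted p = 3.54e-06). The chromosomal passenger CDCA8, the spindle proteins PSRC1 and DLGAP5 and the cohesin protector SGO2 had log2 fold changes of −1.90, −1.98, −1.71 and −1.79 (adjusted p of at most 2.25e-04). CENPI, a gene of the inner kinetochore, fell as well, with a log2 fold change of −1.72, but its call did not hold with the mean of its probe sets.

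Some central members of the list missed the call. CCNB1 and CDK1, which together form the kinase of mitotic entry, had 4004 and 2580 in LH4 and 6833 and 4190 in LHR+, log2 fold changes of −0.78 and −0.71 that passed the adjusted p (2.41e-04 and 0.00159) but not the fold threshold. CDC25B, BIRC5 and BUB3 had log2 fold changes of −0.11, −0.34 and −0.17 in their brightest probe sets. A dimmer probe set of BIRC5 fell further, with means of 1757 in LH4 and 3279 in LHR+. Its log2 fold change of −0.90 (adjusted p = 4.61e-04) was also short of the fold threshold. 

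Genes of DNA replication and the G1/S step moved far less. Of 54 measured, 4 were called lower (7.41%, against 0.809% of all genes), and the median log2 fold change was −0.06. By limma 0 were called higher (against 1.18%), with 8 above 0 at an unadjusted p under 0.05. ASF1B, a histone chaperone, had 251, 231 and 241 in LH4 and 585, 658 and 599 in LHR+ (log2 fold change −1.34, adjusted p = 2.99e-05), and DBF4, the activator of the replication kinase CDC7, had 395, 434 and 477 against 1005, 925 and 872 (log2 fold change −1.10, adjusted p = 1.16e-04). The E2F genes E2F8 and E2F2 were dim, with log2 fold changes of −1.36 and −1.12 whose calls were lost with a pseudocount of 16. MCM2 and PCNA, a helicase subunit and the sliding clamp of replication, had means of 766 and 3380 in LH4 and 839 and 2873 in LHR+ and were not called (adjusted p = 0.818 and 0.419). Among 25 D cyclins, CDKs and CDK inhibitors only CDKN1C was called (4%, against 1.18% of all genes called higher). CDKN1C, which encodes the CDK inhibitor p57, had 4148, 4323 and 4098 in LH4 and 800.5, 852 and 744 in LHR+ (5.25-fold, log2 SE 0.10, adjusted p = 1.28e-08), with very little spread in either group. Its log2 fold change of 2.39 was 1.46 with the mean of its probe sets. CDK4 and CCND1 had log2 fold changes of −0.12 and −0.15 and were not called.

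Many promoters of mitotic genes hold a cell cycle homology region (CHR), which is bound by the repressor complex DREAM in resting cells, downstream of CCAAT boxes bound by NF-Y. The CHR cores TTTGAA and TTCGAA and the CCAAT box were searched on both strands. Of the 39 promoters available for the 43 mitotic genes called lower, 30 held a CHR core (76.9%) and 30 held CCAAT (76.9%). Over the promoters of all 15382 genes at hand the shares were 13.3% and 36.1%, and over those of genes called higher they were 15.1% and 36.9%. The mitotic genes that were not called had similar shares, 68.0% and 80.0% of 25 promoters, and the 83 promoters of the other genes called lower had 18.1% and 43.4%. To show their arrangement, the 120 bases before the start are given for 6 of the genes called lower, on the strand of the gene, with CHR cores and CCAAT boxes of either orientation in capitals (RefSeq, GRCh38.p14).
PIF1, chr15:64825648-64825767, minus strand: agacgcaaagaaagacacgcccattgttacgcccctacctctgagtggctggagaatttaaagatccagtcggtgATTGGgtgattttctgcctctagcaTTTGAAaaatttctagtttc
CDCA8, chr1:37692396-37692515, plus strand: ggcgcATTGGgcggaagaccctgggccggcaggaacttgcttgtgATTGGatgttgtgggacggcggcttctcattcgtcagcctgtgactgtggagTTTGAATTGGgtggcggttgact
PLK1, chr16:23678769-23678888, plus strand: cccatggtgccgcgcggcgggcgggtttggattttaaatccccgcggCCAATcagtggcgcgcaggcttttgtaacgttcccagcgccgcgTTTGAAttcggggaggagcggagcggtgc
KIF11, chr10:92593010-92593129, plus strand: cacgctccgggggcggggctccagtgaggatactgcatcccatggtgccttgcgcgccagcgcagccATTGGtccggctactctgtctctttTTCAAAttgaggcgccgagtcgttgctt
CDC20, chr1:43358861-43358980, plus strand: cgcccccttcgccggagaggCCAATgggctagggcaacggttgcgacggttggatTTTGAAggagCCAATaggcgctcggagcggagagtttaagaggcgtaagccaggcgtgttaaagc
PSRC1, chr1:109283146-109283265, minus strand: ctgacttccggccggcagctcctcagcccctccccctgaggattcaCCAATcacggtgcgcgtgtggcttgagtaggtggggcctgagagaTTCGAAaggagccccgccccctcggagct
In PIF1, PLK1, KIF11 and PSRC1 a single CHR core lies between the last CCAAT box and the start. In CDCA8 the core runs into a further CCAAT box, and in CDC20 it lies between 2 of them.

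**Figure D4:**
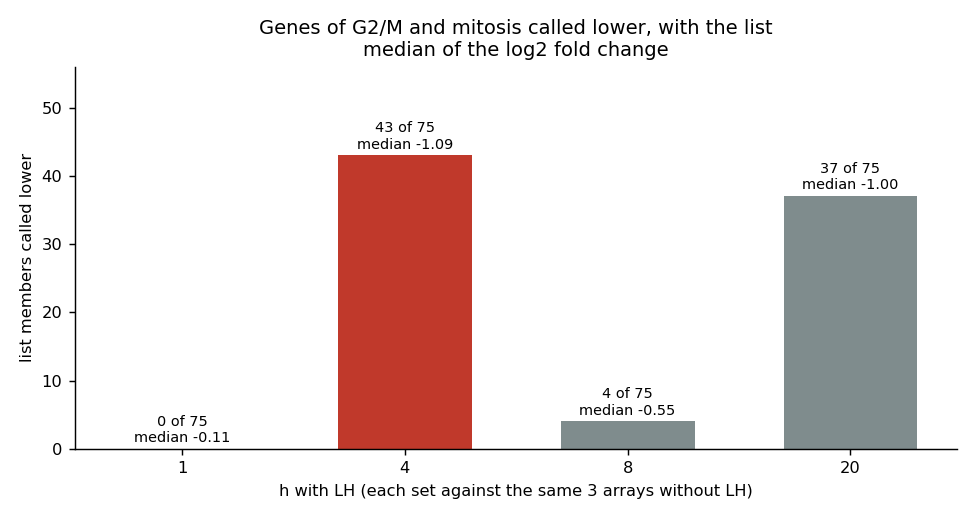
Number of the 75 genes of G2/M and mitosis called lower (y axis) in LHR+ cells after 1, 4, 8 and 20 h with LH (x axis), each time set against the same 3 arrays without LH, with the list median of the log2 fold change above each bar. The counts are 0, 43, 4 and 37.

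The fall of the mitotic genes was set beside the other times, all of which share the LHR+ arrays. After 1 h 0 of the 75 genes were called lower by limma (list median −0.11, with 0.0303% of all genes called lower). After 4 h there were 43 (median −1.09), after 8 h 4 (median −0.55, 0.602% of all genes) and after 20 h 37 (median −0.998, 3.74% of all genes). In the direct comparison of LH4 with LH1, 34 of the 75 were lower at 4 h, against 0.799% of all genes, and 0 were higher by limma, against 0.743%. In that of LH8 with LH4, 10 were higher at 8 h, against 0.566% of all genes, and 0 were lower, against 0.531%. NDC80 was 2.51-fold higher at 8 h than at 4 h (adjusted p = 1.76e-04) and PIF1 3.62-fold higher (adjusted p = 9.44e-04), with means of 1735 and 221 at 8 h that were still below those without LH.

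Other falls were scattered over single genes of known groups. Since 1.18% of all genes were called higher and 0.809% lower, 1 called gene in a direction does not set a list apart. BMF, a BH3-only protein that promotes apoptosis, had 250.3, 162 and 182 in LH4 and 894, 804 and 841 in LHR+ (log2 fold change −2.11, SE 0.15, adjusted p = 2.03e-06), and it was 1 of 2 genes called among 45 of apoptosis and the BCL2 family, the other being PHLDA2 (2.34-fold higher, a call lost with the mean of its probe sets). MCL1 had a log2 fold change of 0.04 and was not called. NT5E, the ectoenzyme that makes adenosine, was lower at the fold threshold (467, 499 and 662 in LH4 and 1209, 1058 and 982 in LHR+, adjusted p = 0.00830), and its call was lost under 6 alternatives. The guanine exchange factor VAV3 had 108, 86.5 and 80.6 in LH4 and 270.5, 228 and 196 in LHR+ (log2 fold change −1.33, adjusted p = 0.00374), while the small GTPase RHOB was higher, with 8947, 8972 and 9192 in LH4 and 3666, 3388 and 3929 in LHR+ (2.47-fold, adjusted p = 4.80e-07). Among 33 interferon-stimulated genes ISG15 was higher (4.04-fold, adjusted p = 1.25e-07) and IFIT2 lower (log2 fold change −1.27, adjusted p = 3.10e-04, not with the mean of its probe sets). CTH, an enzyme of cysteine synthesis under ATF4, and CA12, a carbonic anhydrase, were the only genes called of 31 ATF4 targets and 34 genes of hypoxia and glycolysis (2.08-fold and 2.63-fold higher, adjusted p = 5.06e-04 and 3.57e-04), and CTH missed the fold threshold with equal array medians.

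Beside lists of cell type markers, limma gave 0 genes called by their brightest probe set, in either direction, in 9 of the lists. These were the Notch pathway (29 genes), steroidogenesis (29), nuclear receptors and corepressors (29), Krueppel-like factors (18), the circadian clock (17), the unfolded protein response (22), potassium and calcium channels (37), ribosome biogenesis (32) and ribosomal proteins (39). Since only 1.18% of all genes were called higher and 0.809% lower, 0 calls in lists of 17 to 39 genes do not set these lists apart. Over the 252 genes of these lists, 35 were above and 24 below 0 at an unadjusted limma p under 0.05. Over all 19775 genes, 1550 were above and 1915 below. The lists were not alike in this, since ribosome biogenesis had 13 of its 32 genes above 0 and 1 below. In that list 6 genes above and 1 below 0 had an adjusted p under 0.1 without meeting all call criteria. The Notch list had 3 above and 2 below, and the channels 3 and 1. JAG1, a Notch ligand, was not called in its brightest probe set (log2 fold change 0.23), but a dimmer one was called higher. That probe set had means of 1075 in LH4 and 524.5 in LHR+ (2.09-fold, limma adjusted p = 0.0102). The list medians lay between −0.22 for the channels and 0.18 for ribosome biogenesis. KLF5, a Krueppel-like factor, had means of 5574 in LH4 and 3827 in LHR+ and passed the adjusted p (0.0107) but not the fold threshold. GAPDH, RPL37 and HSPA5 had log2 fold changes of 0.06, 0.05 and 0.01.

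Genes that rose differed in how long they had been high. NR4A3, PDE4D and IL11 were higher at 4 h than at 1 h (log2 fold changes of LH4 over LH1 of 2.32, 2.23 and 3.08, adjusted p of at most 6.65e-05) and lower again at 8 h (log2 fold changes of LH8 over LH4 of −2.48, −1.36 and −1.57) and at 20 h (log2 fold changes of LH20 over LH4 of −2.89, −1.60 and −2.87, adjusted p of at most 2.70e-06). CXCL1 had means of 4450 at 1 h, 3203 at 4 h and 755 at 8 h, and IL6 had 1668, 1163 and 243. For IL6 the lower value at 4 h than at 1 h missed the adjusted p and the fold threshold (log2 fold change −0.52, limma adjusted p = 0.209). Its fall by 8 h was called (log2 fold change −2.25, adjusted p = 6.88e-05). EDN1 and CCN2 were lower at 4 h than at 1 h, with log2 fold changes of LH4 over LH1 of −1.23 and −1.09 (adjusted p = 1.35e-04 and 1.42e-04), and DUSP5 had one of −1.22 (adjusted p = 1.05e-04). SMOC1 had means of 90.6, 1592, 2415 and 4649 after 1, 4, 8 and 20 h, a rise first seen at 4 h. CDKN1C had means of 1108, 4190, 3977 and 5389 at these times, and its difference between 8 and 4 h was not called (log2 fold change −0.07, adjusted p = 0.810). PTGES had means of 312 at 4 h and 473 at 8 h, and TFPI2 had 3496 at 4 h and 4333 at 8 h.

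**Figure D5:**
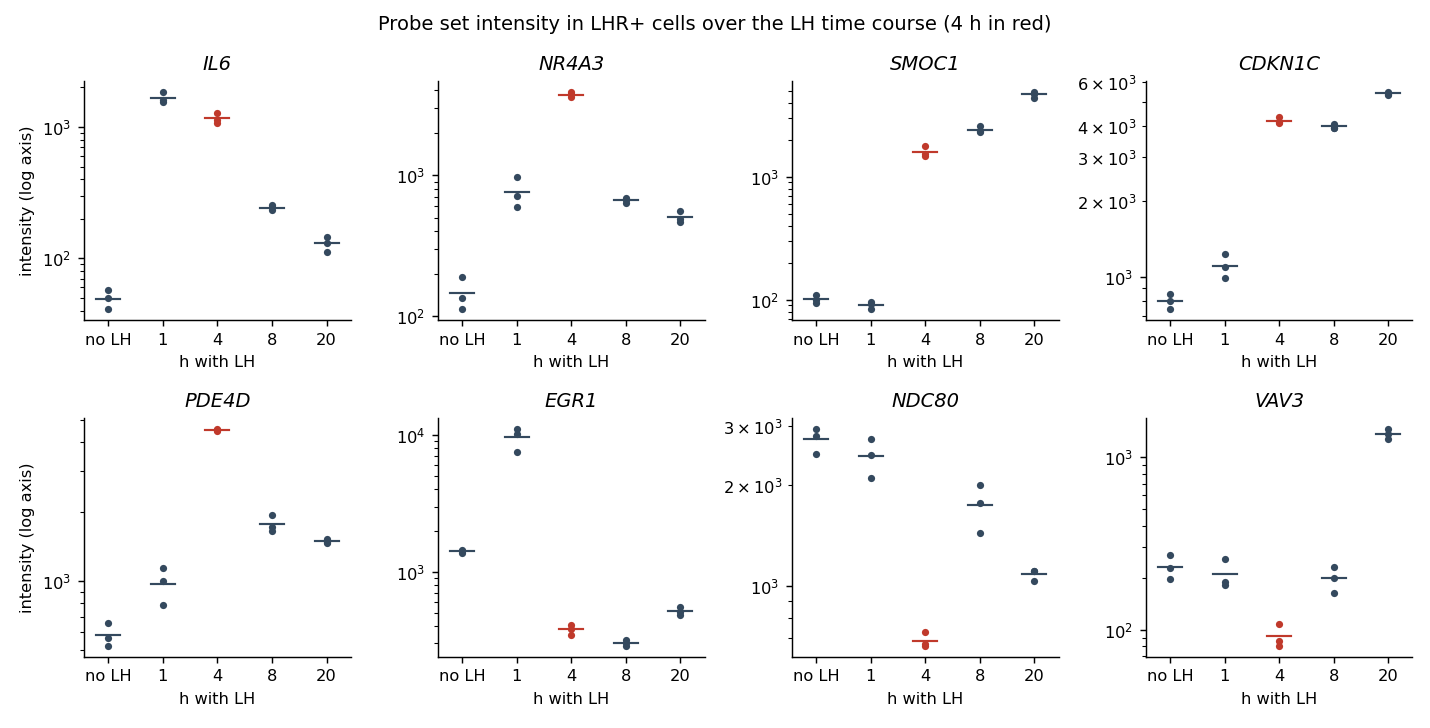
Intensity on a log axis (y axis, own scale per panel) of 8 genes in LHR+ cells without LH and after 1, 4, 8 and 20 h with LH (x axis), with 1 point per array, a line at the mean of 3 and the 4 h arrays in red. NR4A3 and PDE4D are highest at 4 h, SMOC1 and CDKN1C stay high to 20 h, and EGR1, NDC80 and VAV3 are below their level without LH at 4 h.

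LH8 and LH1 share no array with the comparison of LH4 and LHR+, and the called genes were described there. Of the 233 genes called higher at 4 h, 152 had a log2 fold change of LH8 over LH1 above 0, with a median of 0.38, and 53 were called higher and 14 lower there, where 0.759% of all genes were higher and 0.920% lower. Of the 160 genes called lower at 4 h, 30 were above 0, with a median of −0.44, and 1 was called higher and 17 lower. Over all genes the median was −0.01.

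Some genes of interest for LH in these cells were not called at 4 h by their brightest probe set. CXCL12, the ligand of CXCR4, had, in the brighter of its 2 probe sets, 41.4, 32.7 and 38.3 in LH4 and 1.67, 12.6 and 2.28 in LHR+, groups that did not overlap but with a wide spread at the background in LHR+ (adjusted p = 0.178). Its other probe set, also dim, was called higher, with 43.65, 15.01 and 20.5 in LH4 and 5.76, 0.623 and 1.91 in LHR+ (adjusted p = 0.0333). THBS1, an inhibitor of angiogenesis, had 6373, 5476 and 5604 in LH4 and 3669, 3045 and 2679 in LHR+ (log2 fold change 0.90, adjusted p = 0.0119), and DUSP1, a MAPK phosphatase, had 1991, 2588 and 2242 against 1621, 1440 and 1296 (log2 fold change 0.64, adjusted p = 0.0271). Both were separated and below the fold threshold. Of the 7 probe sets of THBS1, 2 dimmer ones were called higher, with 3.57-fold and 2.04-fold changes (adjusted p = 1.08e-06 and 0.00715). TNFSF10, the death ligand TRAIL, had means of 19.1 in LH4 and 17.6 in LHR+ (adjusted p = 0.866), and GJA1, a gap junction protein, had 6553 in LH4 and 4795 in LHR+ (log2 fold change 0.45, adjusted p = 0.0164).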

How the data were processed

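RNA of 18 samples (3 arrays in each of 6 groups) was amplified, labelled with biotin and hybridised to 1-colour arrays. The authors deposited 1 table of intensities per probe set on a linear scale, already summarised and normalized. Per the labels this was done with PLIER, whereas the study's methods name RMA, and no version or detection call is given in the sources used here. The values were taken as deposited and converted to log2(value + 1). Probe sets were named from the platform annotation, and 41097 of 54675 list 1 gene. Groups were read from the sample labels. Means of all 6 groups were fitted with limma 3.58.1 (lmFit and eBayes) in R 4.3.3, and contrasts were taken from that fit. The number of arrays limits the precision. The steps were tested on simulated data. Figures and motif searches used Python 3.11.15 and matplotlib 3.10.9.

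Genes named are those with the largest called changes among genes brighter than the median, up to 4 called genes each way and 3 bright uncalled genes of each list, genes called in opposite directions at another time, and genes of interest for LH in the study. Some further list members, among them MAFF, ATF3 and CXCL2, were named after their values were seen. The comparison and the gene lists were chosen with earlier results of these data known. The alternatives concerned the pseudocount, the scaling, a filter on low values, the arrays fitted, single replicates, a replicate block, the variance estimate, the fold threshold, the scope of the adjustment and the choice of probe set.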

Additional observations from a re-analysis of the deposited data

Results flagged for a closer look

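Some genes were called in opposite directions at 4 h and at another time with LH, each against the same LHR+ arrays, and the difference was then tested directly between the times with limma. EGR1, the zinc finger factor, was higher at 1 h and lower at 4 h than without LH, with a log2 fold change of LH4 over LH1 of −4.64 (adjusted p = 5.38e-10). Its mean was 380.2 in LH4 and 9631 in LH1. PTGER4, a prostaglandin E2 receptor, followed the same course, with −2.33 (adjusted p = 1.03e-05).

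The other genes took opposite directions at 4 and 20 h. VAV3 was lower at 4 h and higher at 20 h than without LH, with a log2 fold change of LH20 over LH4 of 3.89 (adjusted p = 1.98e-07). The same order was seen in DMRT1, a sex-determining transcription factor (2.54, adjusted p = 1.93e-06), ZFHX4, a zinc finger homeobox factor (2.41, adjusted p = 1.16e-06), EVI2B (2.35, adjusted p = 1.48e-05) and CCDC102B (2.34, adjusted p = 2.19e-04). EDN2, the vasoconstrictor endothelin 2, and ZNF540, a zinc finger gene, were higher at 4 h and lower at 20 h, with −2.52 (adjusted p = 1.67e-05) and −2.53 (adjusted p = 9.28e-08). Most of these 4 h calls were not stable. That of EDN2 was lost without LHR+ replicate 1, that of ZFHX4 with the mean of its probe sets and that of ZNF540 with that mean (0.58) or with equal array medians. The call of DMRT1 was lost with a pseudocount of 16 or without LH4 replicate 1, and that of EVI2B with that pseudocount or a fit to the 6 arrays alone. CCDC102B lost its call under both of these and without LH4 replicate 1, LH4 replicate 2, LHR+ replicate 1 or LHR+ replicate 3, and PTGER4 under these 2 and without LH4 replicate 3, LHR+ replicate 1 or LHR+ replicate 2, and with the mean of its probe sets. The 4 h calls of EGR1 and VAV3 were kept under all 15 alternatives.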

How the results depend on the processing

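The counts of called genes, 233 higher and 160 lower in LH4, stayed within 1.5 times of these values under every alternative but the fold threshold, without which 727 genes were higher and 829 lower. Leaving out 1 array gave 199 to 227 higher and 133 to 177 lower. A pseudocount of 16 gave 170 and 108, a fit to the 6 arrays alone 217 and 134, equal array medians 203 and 199, and the mean of all probe sets of a gene 216 and 147. Of 95 named genes that were called, 62 kept the call under all 15 alternatives. The direction of 1 called gene, E2F2, reversed, with a log2 fold change of 0.0422 (limma adjusted p = 0.982) for the mean of its probe sets. That mean takes in dimmer probe sets of the gene with log2 fold changes of 0.61 and 0.64, which were not called.

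With the replicate number as a block, 232 genes were higher and 161 lower, of which 223 and 154 were among those called without it. Deviations of same-numbered LH4 and LHR+ arrays from their group means had correlations of −0.0166, −0.0019 and 0.0298. Those of differently numbered arrays ranged from −0.0427 to 0.0449, and 2 arrays of 6 correlated best with their own number. These values show no pairing by number. Whether same-numbered samples shared a culture or batch cannot be decided from them, since the groups are small and the labels do not say. Among named genes, JAK2 lost its call under the block.

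Limits are few arrays, a single untreated group with no time of its own, no detection calls for dim probe sets, and a receptor probe set that stayed near the background on all arrays.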

Other observations

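Genes outside the lists were chosen after their values were seen and are given as values. PLPP3, which dephosphorylates lysophosphatidic acid and sphingosine 1-phosphate outside the cell, had 3750, 3925 and 3835 in LH4 and 605, 583 and 602 in LHR+ (log2 fold change 2.68, limma adjusted p = 1.28e-08). SPHK1, the kinase that makes sphingosine 1-phosphate, and S1PR1, one of its receptors, were higher as well. SPHK1 had 518, 499.7 and 462 in LH4 and 168, 148 and 150 in LHR+ (log2 fold change 1.66, adjusted p = 3.63e-05), and S1PR1 had 437, 501 and 533 in LH4 and 174, 169 and 124 in LHR+ (log2 fold change 1.66, adjusted p = 1.60e-04). The arrays of LH4 and LHR+ did not overlap in any of the 3 genes. CYP24A1, the enzyme that inactivates vitamin D, had 1751, 2014 and 1752 in LH4 and 425, 323 and 346 in LHR+ (log2 fold change 2.34, adjusted p = 6.05e-06). GRAMD1B, a carrier of cholesterol between membranes, had 849, 777 and 701 in LH4 and 73.6, 144 and 144 in LHR+ (log2 fold change 2.74, adjusted p = 1.72e-05), and AQP3, a water and glycerol channel, had 1161, 1173 and 972 in LH4 and 283, 252 and 298 in LHR+ (log2 fold change 1.98, adjusted p = 2.65e-06). CD55, which protects cells from complement, was bright in both groups and rose by 2.08 on the log2 scale (adjusted p = 5.66e-08).

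Falls outside the lists included MAP3K14, a kinase of the noncanonical NF-kB pathway, with 534, 574 and 479 in LH4 and 1132, 1359 and 1294 in LHR+ (log2 fold change −1.25, adjusted p = 2.03e-04), and RASSF1, a Ras association protein, with 462, 547 and 404 in LH4 and 1097, 1273 and 1054 in LHR+ (log2 fold change −1.28, adjusted p = 3.76e-04). HMOX1, the inducible heme oxygenase, had 364, 262 and 253 in LH4 and 532, 653 and 615 in LHR+ (log2 fold change −1.05, adjusted p = 0.00929). In none of these genes did the arrays overlap between LH4 and LHR+.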
